A study of Mus musculus with 7 samples.

Results

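The DNA replication licensing and fork genes examined here are 45 mouse genes, chosen by symbol, whose proteins mark replication origins, load and switch on the replicative helicase, and copy DNA at the fork. All 45 were listed once among the 25908 usable entries of every table, and 44 passed a filter on level (a mean of the 3 group means of at least 1 FPKM), as did 9202 entries in all. Pole, the catalytic subunit of DNA polymerase epsilon, did not pass it. Transcripts were measured in C57BL/6 mouse oocytes in 7 Smart-seq2 libraries of 10 oocytes each. There were 2 libraries of germinal vesicle (GV) oocytes and 3 of oocytes cultured to metaphase II (MII) in the presence of DMSO, the solvent. Another 2 were of oocytes labelled MII and treated with BYBX, a fluorescent ligand that binds RNA G-quadruplexes (rG4s). The genotype entry reads Control for GV and DMSO and Treat for BYBX, and no allele is named for any group. The females were 4 weeks old and had received PMSG 44 h before collection. The labels list no treatment for the GV oocytes, whereas the study's methods name DMSO or BYBX for all sequenced oocytes, and whether these oocytes had extruded a polar body is not given in the sources used here. The study names 1 μM BYBX where it combines such libraries with ribosome profiling of MII oocytes, and gives no dose in its description of the Smart-seq2 libraries.

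Replication is licensed when the origin recognition complex (ORC), Cdc6 and Cdt1 place the MCM helicase on DNA, a step that geminin blocks by binding Cdt1. The kinase Cdc7 with Dbf4, Mcm10, Cdc45 and the GINS complex then turn MCM into a moving helicase, and primase, the DNA polymerases, the PCNA clamp with its loader RFC, the single-strand binding protein RPA, the flap endonuclease Fen1 and DNA ligase I complete the fork. A fully grown oocyte has finished its premeiotic DNA synthesis, does not replicate DNA between the meiotic divisions, and stores transcripts for the replication that follows fertilization. Fully grown oocytes are largely silent in transcription, so during maturation stored mRNAs are either kept, often with a lengthened poly(A) tail directed by cytoplasmic polyadenylation elements (CPEs), or shortened and degraded.

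An FPKM value is a fragment count divided by transcript length and library depth. Here the authors scaled it further to the ERCC spike-in RNA that was added to each lysate. Total FPKM was 402113 to 489569 in GV, 109732 to 127254 with DMSO and 201482 to 246710 with BYBX. The lowest values of long genes with 1 annotated transcript were spaced in steps, from which 1 fragment was worth 0.0385 to 0.0499 FPKM per kb in GV, 0.0142 to 0.0160 with DMSO and 0.0218 to 0.0242 with BYBX. By these steps the libraries held an estimated 19200000 to 25000000 fragments, a depth that differed far less between groups than the total FPKM did. Oocyte markers summed to 11757 to 14293 FPKM in GV, 2548 to 3270 with DMSO and 6065 to 7170 with BYBX. Of 14 granulosa and cumulus markers 10 lay under 1 FPKM in every library, and their sum was 10.1 to 18.7 FPKM in GV, 2.18 to 2.54 with DMSO and 4.04 to 4.38 with BYBX. Tnfaip6 was at 0 in GV. The 6 listed erythrocyte markers summed to at most 1.20 FPKM in any library, and 3 of them were at 0 in GV. The sums of all marker lists with tested genes moved with the groups as the replication genes did, and their part in the results was not tested. Reverse transcription started from oligo-dT, so a shorter poly(A) tail and a lower transcript level cannot be told apart, nor can a lower RNA content per oocyte and fewer lysed oocytes.

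The 3′ ends of a few of these transcripts are shown first, because a CPE was more frequent among the members with small changes than among those with large ones. Each line gives at most 30 bases of the 3′ UTR of the longest protein-coding transcript (GENCODE vM21, GRCm38), and capitals mark a CPE (TTTTAT or TTTTAAT, searched on the transcript strand only, each start matching at most 1 of them) or a polyadenylation signal (AATAAA or ATTAAA). Orc6, Gmnn, Mcm2 and Mcm7 carried a CPE within the last 100 bases, whereas Mcm5, Gins1, Rfc4 and Fen1 did not. Members not shown went the other way. Rfc2, Rfc3 and Rpa1 carried a CPE and had large falls, and Pcna, Cdc7 and Mcm8 had none and changed little. The lines for Mcm2 and Mcm7 mark both elements. In Orc6 the CPE follows the signal, which opens its line in lower case. The Gmnn line also holds another CPE of this transcript, TTTTAAT, left in lower case.
Orc6: aataaatgttatTTTTATatgc
Gmnn: atttttaatccgTTTTATgtaaatagcatt
Mcm2: gtagtttattTTTTAATagatttgAATAAA
Mcm7: catgctgcacttTTTTATtctgccAATAAA
Mcm5: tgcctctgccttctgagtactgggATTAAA
Gins1: taatattgtactcttataattgaaAATAAA
Rfc4: ttttgtatgaaaccagttactataAATAAA
Fen1: aagatgtgaagagaaaaaaaaaacAATAAA

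From GV to MII with DMSO, transcripts of nearly every replication factor became scarcer on the deposited scale, to very different degrees. On the log2(FPKM + 1) scale used below, the subunits Rpa2, Gins4 and Rfc2 had the largest falls, whereas the changes of Orc6, Gmnn, Pola1, Pole2 and Pcna missed the threshold. By the plain ratio of group means, Fen1 kept 0.205% of its GV level, Rpa2 0.391%, Prim1 0.433%, Rfc2 0.738% and Gins4 0.793%. The 45 members summed to 2417 ± 486 FPKM in GV (SD, n = 2), 557 ± 36.3 FPKM with DMSO (n = 3) and 1069 ± 108 FPKM with BYBX (n = 2), so 23.0% of the GV sum was left with DMSO and 44.2% with BYBX, where all entries together kept 27.0% and 50.3%. Their share of total FPKM, which no scaling of a whole library can move, was 0.540 ± 0.034% in GV, 0.464 ± 0.021% with DMSO and 0.478 ± 0.020% with BYBX, with the GV libraries above all others and the MII groups overlapping. Groups were compared with limma on log2(FPKM + 1), and a change is given as the difference of the group means on that scale. In MII with DMSO against GV 39 of the 44 tested members were lower at a Benjamini-Hochberg adjusted p under 0.05 and 0 were higher, beside 88.3% lower and 0.272% higher among all tested entries. The median change was -2.10 over the members and -1.83 over all tested entries, and the lower and upper quartiles were -3.98 and -1.06 over the members and -2.93 and -0.999 over all. The labels do not say that the libraries of a group came from separate mice, so p-values measure the spread between these libraries, which may be technical.

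With BYBX against DMSO 29 members were higher and 0 were lower, beside 65.2% and 0.0326% of all tested entries, and the median change was 0.88 over the members and 0.84 over all. Against GV the BYBX-treated MII oocytes had 30 members lower and 0 higher, beside 69.2% and 0.315%, with medians of -1.26 and -0.99. These shares of members lay near those of the whole table. Every library with DMSO lay below both of GV for 41 of the 44 tested members, beside 92.5% of all tested entries, every library with BYBX lay above all with DMSO for 38, beside 79%, and both with BYBX lay below GV for 35, beside 82.3%. The comparisons share libraries, so they are not independent of each other. The direction of many members rests on the spike-in scale. After rescaling to the same total FPKM, MII with DMSO had 22 members below GV and 14 above it, beside 49.5% and 23.3% of all tested entries, and after centring on the median of each library it had 16 below and 17 above, beside 26.7% and 48.8%. BYBX-treated oocytes had 2 members below DMSO and 17 above at the same total, beside 8.22% and 39.9%, and 15 below and 14 above with median centring, beside 43.9% and 18.4%. Set against GV they had 12 below and 4 above at the same total, beside 13.3% and 5.3%, and 14 below and 8 above with median centring, beside 13.6% and 15.2%. The change between MII with DMSO and GV had a median over all tested entries of -0.56 and 0.47 under these scalings. For 16 members the fall from GV to MII was called under all 3 scalings, beside 26.7% of all tested entries: Orc2, Cdc6, Cdt1, Mcm5, Gins1, Gins2, Gins4, Prim1, Pold2, Pold3, Rfc2, Rfc3, Rfc4, Rpa1, Rpa2 and Fen1. With BYBX against DMSO the rise was called under all 3 scalings for 14 of these genes, all but Orc2 and Cdt1, beside 18.4% of all tested entries. Of the members lower with BYBX than in GV 12 were so under all 3 scalings, beside 11.6%: Orc3, Cdc6, Mcm5, Gins1, Gins2, Gins4, Prim1, Pold3, Rfc2, Rfc3, Rpa1 and Fen1.

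**Figure D1:**
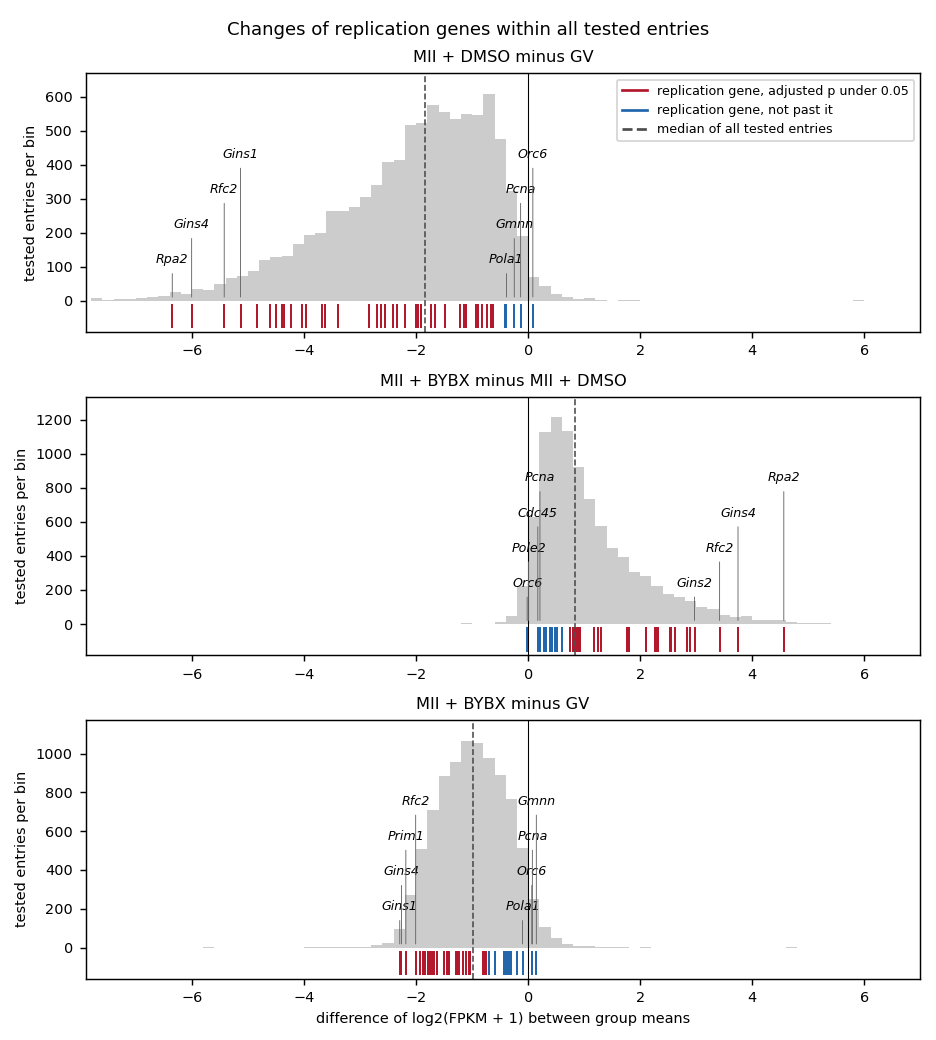
Distribution of the difference of log2(FPKM + 1) over the 9202 tested entries (grey bars, entries per bin) with 1 tick for each of the 44 tested replication genes, in the 3 comparisons. Dashed lines mark the median of all tested entries (-1.83, 0.84 and -0.99). The ticks of MII with DMSO against GV run from -6.35 (Rpa2) to 0.083 (Orc6) on the deposited scale. On median-centred values the sign turns for 18 of the 39 members called lower in that comparison.

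**Figure D2:**
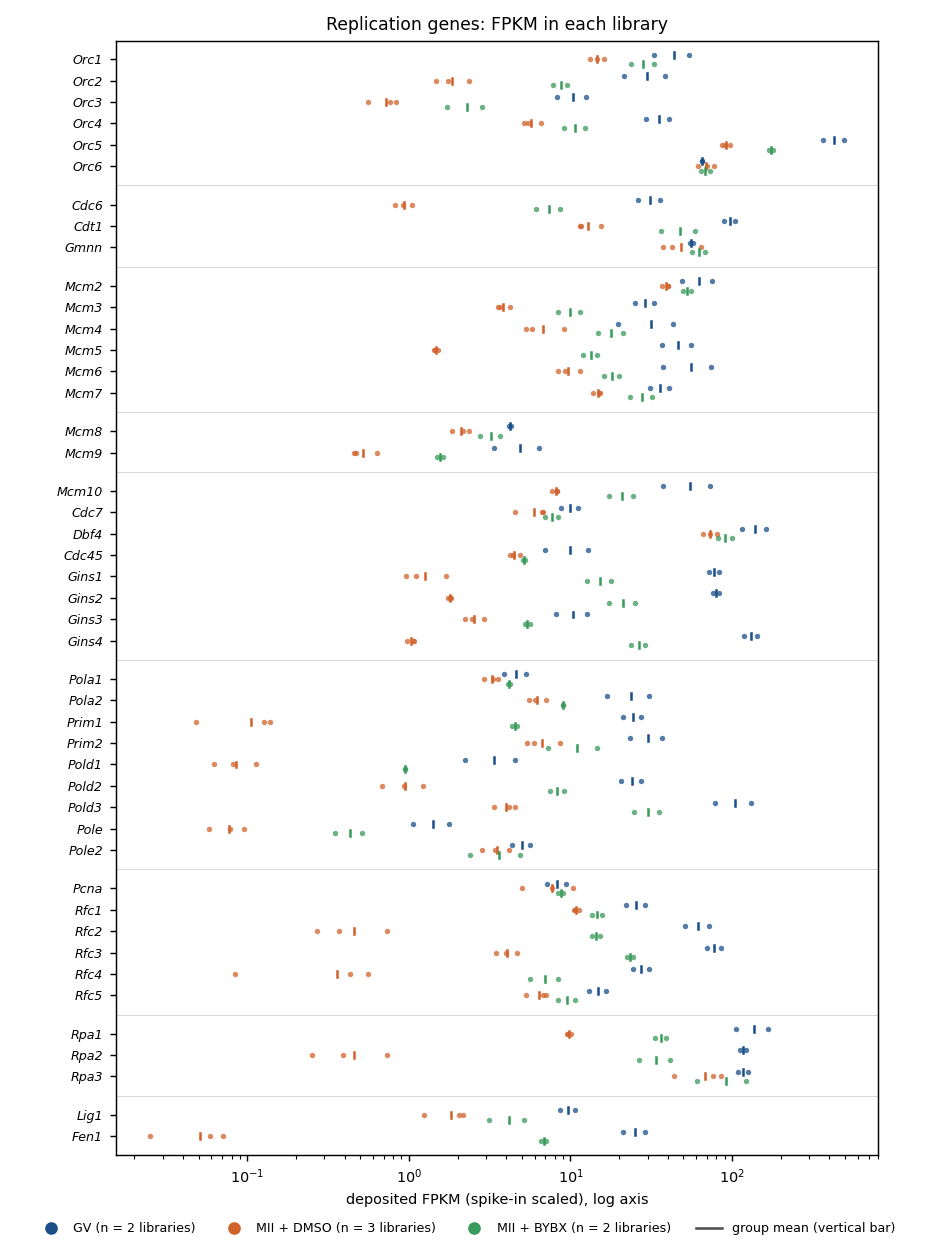
Deposited FPKM (log axis) of the 45 replication genes in each of the 7 libraries, ordered by role. Points are libraries and vertical bars are group means. Rpa2, Rfc2, Prim1 and Fen1 lie under 1 FPKM in all 3 libraries with DMSO, while the groups overlap for Orc6 and Pcna.

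The origin recognition complex is the 6-subunit platform that marks where replication can start. Orc5 (chromosome 5, 22486485 to 22550429, minus strand) was the most abundant member in every group, with 491 and 364 FPKM in GV, 97.6, 87.1 and 90.03 FPKM with DMSO, and 180.0 and 169 FPKM with BYBX. On the deposited scale no libraries overlapped between groups and its change was -2.20 (standard error 0.24, adjusted p = 1.11e-06) from GV to MII with DMSO, although it was 0.11 with median centring. With BYBX it was higher than with DMSO by 0.92 (adjusted p = 0.00455), which was -0.36 with median centring. Orc6 (chromosome 8, 85299632 to 85308278, plus strand), the smallest and most loosely bound subunit, stood apart with 65.02 and 65.2 FPKM in GV, 61.3, 69.7 and 77.1 FPKM with DMSO, and 72.6 and 63.99 FPKM with BYBX. Its groups overlapped, and its change of 0.083 (standard error 0.24, adjusted p = 0.746) was the only one above 0 among the tested members in that comparison. At the same total FPKM it was 1.94 and with median centring 2.39. About 7% of its exon bases also belong to Vps35 on the other strand, and the study states no strand for the counting.

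Orc2 had the largest change of the complex, with 38.3 and 21.6 FPKM in GV, 2.35, 1.74 and 1.47 FPKM with DMSO, and 7.83 and 9.51 FPKM with BYBX. All libraries with DMSO lay below those with BYBX, and these below those of GV, for a change of -3.40 (standard error 0.28, adjusted p = 4.74e-08) in MII with DMSO against GV and of 1.77 (standard error 0.28, adjusted p = 8.42e-05) with BYBX against DMSO, the latter not called with median centring (0.49). Of its exon bases 29.8% also belong to Nif3l1 on the other strand, so its reads are uncertain. Orc3 and Orc4 had changes of -2.70 and -2.42 from GV to MII, both called on the deposited scale and neither under both other scalings. Orc1, an ATPase subunit, changed by -1.48 (standard error 0.28, adjusted p = 0.000202) from GV to MII, which was 0.34 at the same total FPKM and 0.83 with median centring. Its rise with BYBX (0.89, adjusted p = 0.0125) was -0.38 with median centring and lost its call without the library BYBX 1 (adjusted p = 0.128), and that of Orc4 (0.79, and -0.48 with median centring) did without BYBX 2 (0.128) or DMSO 2 (0.0514). As shares of the summed ORC FPKM, which the scale of a library cannot move, Orc6 took 9.26 and 12.5% in GV, 33.7, 38.9 and 40.5% with DMSO, and 23.9 and 22.8% with BYBX, and Orc5 took 69.9 and 69.9% in GV, 53.7, 48.6 and 47.2% with DMSO, and 59.2 and 60.00% with BYBX. Orc6 thus formed a larger part of the ORC transcripts in every MII library than in either GV library.

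Cdc6 and Cdt1 load the helicase, and geminin, encoded by Gmnn, holds Cdt1 inactive. Cdc6 (chromosome 11, 98907801 to 98923940, plus strand) had 35.6 and 26.1 FPKM in GV, 1.04, 0.822 and 0.917 FPKM with DMSO, and 6.10 and 8.59 FPKM with BYBX. The groups did not overlap, and the changes were -4.03 (standard error 0.24, adjusted p = 2.63e-09) in MII with DMSO against GV, 2.10 (standard error 0.24, adjusted p = 5.89e-06) with BYBX against DMSO and -1.93 (standard error 0.26, adjusted p = 7.77e-05) with BYBX against GV. Cdt1 (chromosome 8, 122568015 to 122573554, plus strand) had 105 and 89.2 FPKM in GV, 11.5, 11.4 and 15.4 FPKM with DMSO, and 58.7 and 36.4 FPKM with BYBX, with changes of -2.84 (standard error 0.28, adjusted p = 3.09e-07) and 1.79 (standard error 0.28, adjusted p = 7.91e-05) in the first and the second of these comparisons. The rise with BYBX was 0.51 and not called with median centring, and the difference of -1.05 from GV lost its call without GV 1 (adjusted p = 0.0648) or BYBX 2 (0.104). Gmnn (chromosome 13, 24751845 to 24761923, minus strand) had 56.97 and 54.7 FPKM in GV, 37.6, 42.4 and 64.5 FPKM with DMSO, and 68.2 and 56.1 FPKM with BYBX, and all groups overlapped. Its changes of -0.25 (standard error 0.28, adjusted p = 0.402) and 0.39 (standard error 0.28, adjusted p = 0.222) missed the threshold, and under the other scalings the former was 1.60 and 2.06.

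The levels of Cdt1 and its inhibitor stood in a different ratio in each group. The ratio of Gmnn to Cdt1 FPKM was 0.545 and 0.613 in GV, 3.25, 3.73 and 4.19 with DMSO, and 1.16 and 1.54 with BYBX. It lay at or below 0.613 in GV and at or above 3.25 with DMSO, with the BYBX-treated libraries between. The ratio of Cdt1 to Cdc6 was 2.93 and 3.42 in GV, 11.1, 13.8 and 16.8 with DMSO, and 9.63 and 4.24 with BYBX. Here too the groups did not overlap, and the BYBX-treated libraries spread over most of the range between the others. These ratios were picked after the values had been seen and were not tested, and neither depends on the scale of a library.

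The replicative helicase is a ring of the subunits Mcm2 to Mcm7, which work in equal numbers. In GV their transcripts were of like abundance, with the highest 2.14 times the lowest, whereas with DMSO the highest was 26.5 times the lowest and with BYBX 5.29 times. Mcm2 (chromosome 6, 88883474 to 88898780, minus strand) had 75.2 and 48.9 FPKM in GV, 39.8, 36.6 and 40.4 FPKM with DMSO, and 55.6 and 49.8 FPKM with BYBX. Its libraries with DMSO lay below all others on the deposited scale and its change was -0.63 (standard error 0.26, adjusted p = 0.0357). This call was lost without GV 1 (adjusted p = 0.258), DMSO 1 (0.0524), DMSO 2 (0.0985) or DMSO 3 (0.0558), and the change was 1.22 and 1.68 under the other scalings, called higher under both.

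Mcm5 (chromosome 8, 75109569 to 75128439, plus strand) had 55.4 and 37.05 FPKM in GV, 1.46, 1.51 and 1.44 FPKM with DMSO, and 14.6 and 12.03 FPKM with BYBX. Here the groups stood far apart, with changes of -4.23 (standard error 0.25, adjusted p = 2.11e-09) from GV to MII, 2.53 (standard error 0.25, adjusted p = 1.36e-06) with BYBX against DMSO and -1.70 (standard error 0.27, adjusted p = 0.000157) with BYBX against GV. The ratio of Mcm2 to Mcm5 was 1.36 and 1.32 in GV, 27.3, 24.3 and 28.1 with DMSO, and 3.81 and 4.14 with BYBX, again picked after the values had been seen. The libraries of the 3 groups did not overlap in this ratio, which does not depend on the scale of a library.

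Mcm3 had 32.8 and 25.2 FPKM in GV, 3.65, 3.55 and 4.22 FPKM with DMSO, and 11.5 and 8.40 FPKM with BYBX, and Mcm6 had 73.96 and 37.6 FPKM in GV, 11.5, 9.29 and 8.41 FPKM with DMSO, and 16.1 and 19.99 FPKM with BYBX. Their changes from GV to MII with DMSO were -2.63 (standard error 0.25, adjusted p = 1.99e-07) and -2.34 (standard error 0.30, adjusted p = 4.97e-06). Both kept a negative sign under the other scalings (-0.95 and -0.33 for Mcm3, -0.54 and -0.034 for Mcm6). With BYBX against DMSO they changed by 1.18 and 0.83 on the deposited scale, both called, and by -0.10 and -0.45 with median centring. The call of Mcm6 with BYBX was lost without DMSO 2 (adjusted p = 0.0561), DMSO 3 (0.0734) or BYBX 2 (0.133).

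Mcm4 had 43.3 and 19.6 FPKM in GV, 9.11, 5.79 and 5.32 FPKM with DMSO, and 14.8 and 21.1 FPKM with BYBX. Of the 6 subunits it had the most unequal GV libraries, and the change of -1.996 (standard error 0.34, adjusted p = 7.20e-05) from GV to MII turned to 0.31 with median centring, while the rise with BYBX (1.30, adjusted p = 0.00402) was 0.50 at the same total FPKM and 0.024 with median centring, called under neither. Mcm7 had 40.9 and 31.1 FPKM in GV, 15.1, 13.8 and 15.3 FPKM with DMSO, and 32.1 and 23.3 FPKM with BYBX, with a change of -1.22 (standard error 0.25, adjusted p = 0.000466) from GV to MII that was 0.58 and 1.08 under the other scalings. Its rise with BYBX (0.85) was -0.0015 at the same total FPKM and -0.43 with median centring, and was lost without BYBX 1 (adjusted p = 0.124). Within the summed Mcm2 to Mcm7 FPKM the share of Mcm2 was 23.4 and 24.5% in GV, 49.4, 51.9 and 53.8% with DMSO, and 38.4 and 37.02% with BYBX. The share of Mcm5 was 17.2 and 18.6% in GV, 1.81, 2.14 and 1.92% with DMSO, and 10.1 and 8.93% with BYBX. Mcm2 thus took a larger part of the helicase transcripts in every MII library than in GV, and Mcm5 a smaller one. Mcm8 and Mcm9, relatives that act in repair and meiotic recombination, were scarce. Mcm8 had 4.20, 2.12 and 3.20 FPKM as group means of GV, DMSO and BYBX, and Mcm9 had 4.89, 0.522 and 1.55 FPKM. Both fell from GV to MII with DMSO on the deposited scale (-0.74 and -1.91) and were of positive sign with median centring (1.56, and 0.40, the latter not called). At the same total FPKM they parted, with Mcm8 called higher (0.67) and Mcm9 called lower (-0.79). Mcm9 shares 19.2% of its exon bases with Asf1a on the other strand.

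Helicase activation needs the kinase Cdc7 and its activator Dbf4, the scaffold Mcm10, Cdc45 and the 4 GINS subunits. Dbf4 (chromosome 5, 8396973 to 8422716, minus strand) was the second most abundant member in GV, with 161 and 116 FPKM in GV, 80.8, 66.2 and 73.3 FPKM with DMSO, and 81.8 and 99.3 FPKM with BYBX. Its change of -0.89 (standard error 0.26, adjusted p = 0.00503) was lost without GV 1 (adjusted p = 0.0544) and was 0.98 and 1.41 under the other scalings. Cdc7 had group means of 9.95, 5.98 and 7.64 FPKM in GV, DMSO and BYBX and a change of -0.66 (standard error 0.25, adjusted p = 0.0236), which was 1.01 and 1.65 under the other scalings and lost its call without GV 1 (adjusted p = 0.143) or DMSO 1 (0.114). The ratio of Dbf4 to Cdc7 overlapped between all groups, from 9.82 to 17.8 over the 7 libraries.

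Mcm10, which links the helicase to polymerase alpha, had 54.9 ± 24.96 FPKM in GV (SD, n = 2), 8.08 ± 0.309 FPKM with DMSO (n = 3) and 20.9 ± 4.97 FPKM with BYBX (n = 2). Its changes of -2.55 and 1.25 were called on the deposited scale and were -0.24 and -0.025 with median centring. Cdc45 had 12.8 and 6.99 FPKM in GV, 4.40, 4.85 and 4.25 FPKM with DMSO, and 5.26 and 5.12 FPKM with BYBX. Its change from GV to MII was -0.94 (standard error 0.26, adjusted p = 0.00384), but 0.70 and 1.37 under the other scalings, and the call was lost without GV 1 (adjusted p = 0.0571). The difference between BYBX and GV was -0.76 on the deposited scale and 0.10 and 0.26 under the others, and this call was lost without GV 1 (adjusted p = 0.229), BYBX 1 (0.0653) or BYBX 2 (0.0825).

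The summed FPKM of GINS, a part of the moving helicase, went from 298 in GV to 6.62 with DMSO and 68.2 with BYBX, the largest relative fall among the 7 complexes summed. Gins4 (chromosome 8, 23226616 to 23237659, minus strand) had 142 and 118 FPKM in GV, 1.07, 0.977 and 1.05 FPKM with DMSO, and 23.8 and 28.98 FPKM with BYBX. Its changes were -6.01 (standard error 0.24, adjusted p = 2.56e-10), 3.74 (standard error 0.24, adjusted p = 5.03e-08) and -2.26 (standard error 0.26, adjusted p = 5.91e-05) in the order MII with DMSO against GV, BYBX against DMSO and BYBX against GV. Gins1 (chromosome 2, 150905400 to 150931280, plus strand) had 83.5 and 71.96 FPKM in GV, 1.11, 1.70 and 0.965 FPKM with DMSO, and 17.9 and 12.6 FPKM with BYBX, with changes of -5.13 (standard error 0.26, adjusted p = 6.55e-10), 2.84 (standard error 0.26, adjusted p = 6.44e-07) and -2.29 (standard error 0.28, adjusted p = 6.67e-05) in the same order. On log2(FPKM + 1) the fall of Gins1 from GV was the largest of all members in BYBX-treated oocytes. By the plain ratio of group means Prim1 fell slightly more, to 18.6% of GV against 19.6% for Gins1. Gins2 had 82.5 and 76.2 FPKM in GV, 1.82, 1.80 and 1.76 FPKM with DMSO, and 25.2 and 17.2 FPKM with BYBX and changes of -4.85, 2.97 and -1.88, but 67.3% of its exon bases are also in Gse1 on the other strand, so its reads are uncertain. Gins3 changed least of the 4, with 12.6 and 8.19 FPKM in GV, 2.46, 2.22 and 2.93 FPKM with DMSO, and 5.58 and 5.21 FPKM with BYBX and a change of -1.66 (standard error 0.24, adjusted p = 1.62e-05) from GV to MII that was 0.64 with median centring. Its difference of -0.81 between BYBX and GV, of positive sign under both other scalings, lost its call without GV 1 (adjusted p = 0.112) or BYBX 2 (0.0582). As a share of the summed GINS FPKM, Gins3 took 3.93 and 2.98% in GV, 38.1, 33.2 and 43.7% with DMSO, and 7.70 and 8.14% with BYBX. It was the least abundant of the 4 in GV and the most abundant in each library with DMSO.

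The fork begins with primase (Prim1, catalytic, and Prim2) bound to polymerase alpha (Pola1 and Pola2). Prim1 (chromosome 10, 128015168 to 128030037, plus strand) had 27.4 and 21.03 FPKM in GV, 0.128, 0.139 and 0.0481 FPKM with DMSO, and 4.32 and 4.69 FPKM with BYBX. By the fragment steps this was an estimated 4.22 to 11.99 fragments in each library with DMSO, against 731 and 728 in GV and 239 and 287 with BYBX, so the level with DMSO is known only roughly. Its changes were -4.50 (standard error 0.21, adjusted p = 4.92e-10), 2.32 (standard error 0.21, adjusted p = 8.30e-07) and -2.18 (standard error 0.23, adjusted p = 5.68e-05) in the order used above. Prim2 had 36.7 and 23.3 FPKM in GV, 8.57, 5.94 and 5.36 FPKM with DMSO, and 7.30 and 14.7 FPKM with BYBX, with a change of -2.01 (standard error 0.32, adjusted p = 4.02e-05) from GV to MII that was 0.29 with median centring. Its change with BYBX against DMSO of 0.60 (standard error 0.32, adjusted p = 0.11) missed the threshold, although the call was made without DMSO 1 (adjusted p = 0.0376) or BYBX 1 (0.0209), and its difference from GV lost the call without GV 1 (0.0684). As a share of the polymerase alpha and primase sum, Prim1 took 27.4 and 32.4% in GV, 0.663, 0.903 and 0.346% with DMSO, and 17.4 and 14.4% with BYBX.

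Pola1 (chromosome X, 93304767 to 93632155, minus strand) had 5.32 and 3.87 FPKM in GV, 3.54, 3.31 and 2.90 FPKM with DMSO, and 4.11 and 4.24 FPKM with BYBX. Its change from GV to MII of -0.39 (standard error 0.22, adjusted p = 0.111) missed the threshold, although it was called without GV 2 (adjusted p = 0.0403) and was of positive sign and called under the other scalings (1.12 and 1.92). The change of Pola2 was -1.73 (standard error 0.27, adjusted p = 3.86e-05), which was 0.0057 and 0.58 under the others. Polymerase delta makes the lagging strand. Pold1, Pold2 and Pold3 were called lower in MII with DMSO, with changes of -1.96, -3.68 and -4.36, although Pold1 had a positive sign on median-centred values (0.34). Pold1 had group means of 3.38, 0.0858 and 0.949 FPKM in GV, DMSO and BYBX. With DMSO it lay under the pseudocount of 1, which shrinks its change on the log2 scale. As plain ratios of group means, 2.54% of GV was left of Pold1, 3.95% of Pold2 and 3.83% of Pold3 with DMSO. The share of each subunit in the polymerase delta sum overlapped between all groups. Pold3 had 131 and 78.4 FPKM in GV, 3.35, 4.52 and 4.15 FPKM with DMSO, and 35.4 and 24.6 FPKM with BYBX, with changes of -4.36 (standard error 0.29, adjusted p = 5.78e-09) and 2.61 (standard error 0.29, adjusted p = 3.60e-06) in the first and the second comparison. It took 74.4% to 85.6% of the polymerase delta sum over the 7 libraries. Of polymerase epsilon, which makes the leading strand, Pole had 1.78 and 1.06 FPKM in GV, 0.0779, 0.0956 and 0.0576 FPKM with DMSO, and 0.349 and 0.511 FPKM with BYBX. Pole2 had 5.65 and 4.32 FPKM in GV, 4.17, 2.85 and 3.43 FPKM with DMSO, and 2.41 and 4.87 FPKM with BYBX, with overlapping MII groups and a change from GV to MII of -0.42 (standard error 0.27, adjusted p = 0.151), which was 1.11 and 1.89 under the other scalings, both called.

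Pcna (chromosome 2, 132249162 to 132253314, minus strand), the sliding clamp that holds polymerases on DNA, had 9.40 and 7.14 FPKM in GV, 5.01, 10.3 and 7.64 FPKM with DMSO, and 8.41 and 8.98 FPKM with BYBX. All groups overlapped, with changes of -0.14 (standard error 0.28, adjusted p = 0.651) and 0.21 (standard error 0.28, adjusted p = 0.513), and the former was 1.53 and 2.17, called higher, under the other scalings. The annotation lists the pseudogenes Pcna-ps1 and Pcna-ps2, which could share reads with it. Rfc1 to Rfc5 form the loader that opens the clamp. Rfc2 (chromosome 5, 134581366 to 134601805, plus strand) had 72.4 and 51.4 FPKM in GV, 0.269, 0.371 and 0.730 FPKM with DMSO, and 13.6 and 15.2 FPKM with BYBX. Its changes were -5.42 (standard error 0.25, adjusted p = 4.36e-10), 3.42 (standard error 0.25, adjusted p = 1.29e-07) and -2.01 (standard error 0.27, adjusted p = 7.72e-05) in the order used above, and 15.1% of its exon bases are shared with Lat2 on the other strand. Rfc4 had 30.6 and 24.3 FPKM in GV, 0.555, 0.0842 and 0.433 FPKM with DMSO, and 5.60 and 8.39 FPKM with BYBX, an estimated 5.42 to 40.3 fragments per library with DMSO, and changes of -4.40 and 2.55. It shares 12.7% of its exon bases with Eif4a2 on the other strand. Rfc3 followed the same course, with 85.4 and 69.6 FPKM in GV, 3.47, 4.65 and 3.96 FPKM with DMSO, and 24.5 and 22.3 FPKM with BYBX.

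The large subunit Rfc1 had 28.9 and 21.98 FPKM in GV, 11.3, 10.6 and 10.5 FPKM with DMSO, and 15.8 and 13.5 FPKM with BYBX. Its change from GV to MII was -1.15 (standard error 0.24, adjusted p = 0.000486) on the deposited scale and of positive sign under both others (0.63 and 1.15), and Rfc5 (-1.10) did the same (0.61 and 1.20). The difference of Rfc1 between BYBX and GV (-0.75) was of positive sign under both other scalings and was lost without GV 1 (adjusted p = 0.105) or BYBX 2 (0.121). As a share of the RFC sum Rfc1 took 12.4 and 12.2% in GV, 54.1, 46.6 and 46.8% with DMSO, and 22.5 and 19.9% with BYBX. Rfc2 took 30.9 and 28.5% in GV, 1.29, 1.63 and 3.26% with DMSO, and 19.5 and 22.4% with BYBX. The loader transcripts were thus mostly Rfc2 and Rfc3 in GV and mostly Rfc1 and Rfc5 with DMSO.

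RPA, the trimer that coats single-stranded DNA, held both the largest called fall on log2(FPKM + 1) and one of the smallest. Rpa1 (chromosome 11, 75298166 to 75348324, minus strand) had 167 and 105 FPKM in GV, 9.51, 10.1 and 9.72 FPKM with DMSO, and 38.7 and 33.4 FPKM with BYBX. Its changes were -3.63 (standard error 0.26, adjusted p = 1.61e-08) from GV to MII and 1.78 (standard error 0.26, adjusted p = 5.54e-05) with BYBX against DMSO. Rpa2 (chromosome 4, 132768332 to 132778752, plus strand) had 122 and 112 FPKM in GV, 0.250, 0.728 and 0.392 FPKM with DMSO, and 41.05 and 26.6 FPKM with BYBX. These values left no overlap between groups, and on log2(FPKM + 1) Rpa2 had the largest change of the members in both comparisons, -6.35 (standard error 0.26, adjusted p = 2.82e-10) and 4.56 (standard error 0.26, adjusted p = 3.57e-08), with -1.79 (standard error 0.29, adjusted p = 0.000174) for BYBX against GV. By the plain ratio of group means Fen1 changed more. It kept 0.205% of GV with DMSO against 0.391% for Rpa2, and was 133 times as high with BYBX as with DMSO, against 74.1 times. The libraries of Rpa2 with DMSO held an estimated 27.6 to 71.2 fragments. Rpa3 (chromosome 6, 8255936 to 8259173, minus strand), the small subunit, had 108 and 126 FPKM in GV, 43.96, 75.7 and 84.8 FPKM with DMSO, and 123 and 60.4 FPKM with BYBX. The call for its change of -0.82 (standard error 0.34, adjusted p = 0.0371) was lost without GV 1 (adjusted p = 0.119), GV 2 (0.205) or DMSO 1 (0.116), and the change was 1.04 and 1.48 under the other scalings. In GV the 3 subunits were within 1.16 times of each other, and with DMSO the highest was 149 times the lowest. As a share of the RPA sum, Rpa2 took 30.7 and 32.6% in GV, 0.466, 0.842 and 0.412% with DMSO, and 20.3 and 22.1% with BYBX. Rpa3 took 27.2 and 36.8% in GV, 81.8, 87.4 and 89.4% with DMSO, and 60.6 and 50.1% with BYBX. The small subunit was thus the most abundant of the 3 in every MII library.

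Lagging-strand pieces are trimmed by Fen1 and joined by DNA ligase I. Fen1 (chromosome 19, 10199132 to 10204169, minus strand) had 28.9 and 21.2 FPKM in GV, 0.0585, 0.0704 and 0.0251 FPKM with DMSO, and 6.58 and 7.05 FPKM with BYBX, an estimated 3.51 to 9.35 fragments in each library with DMSO. Its changes were -4.61 (standard error 0.22, adjusted p = 4.99e-10), 2.89 (standard error 0.22, adjusted p = 1.68e-07) and -1.72 (standard error 0.24, adjusted p = 8.51e-05) in the order used above, but 84.2% of its exon bases are annotated in genes on the other strand, the antisense transcript Gm10143 above all. Lig1 had 10.6 and 8.57 FPKM in GV, 1.25, 2.18 and 2.05 FPKM with DMSO, and 5.16 and 3.14 FPKM with BYBX, with a change of -1.92 (standard error 0.25, adjusted p = 7.03e-06) from GV to MII that was 0.39 with median centring. Its rise with BYBX (0.86) was -0.42 on that scale and lost its call without BYBX 1 (adjusted p = 0.122), and its difference from GV did without GV 1 (0.0534).

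**Figure D3:**
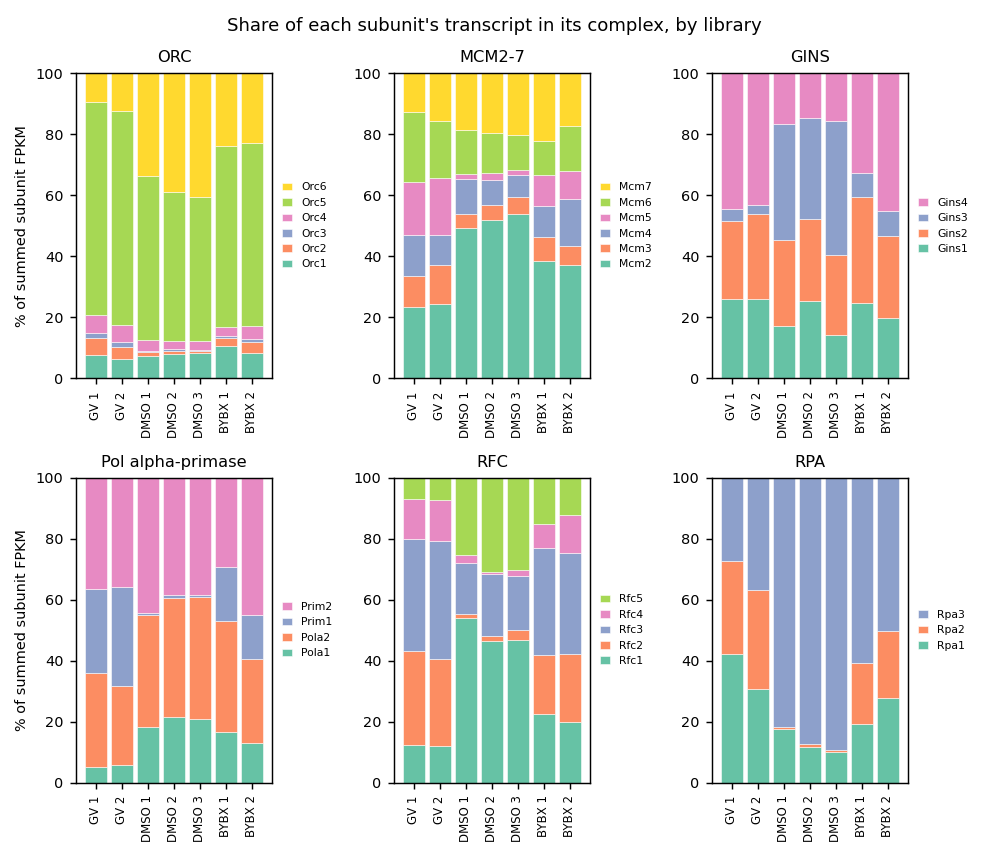
Share of each subunit in the summed FPKM of its complex (stacked bars, percent, 1 bar per library), which does not depend on how a library was scaled. In the libraries with DMSO Orc6, Mcm2, Gins3, Rfc1 and Rpa3 take larger parts than in GV, and Prim1, Rfc2, Mcm5 and Rpa2 smaller ones. The BYBX-treated libraries lie between for these 9 subunits.

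Beyond the 3′ ends printed above, a CPE lay within the last 100 bases of the transcript for 19 of the 45 members (42.2%), against 20.2% of the 8747 tested gene names that matched a transcript, and it began before a polyadenylation signal in 12 of the 19. In Cdc45, counted among these, the CPE that begins before the signal overlaps it. The change from GV to MII with DMSO had a median of -1.35 over the 18 tested members with a CPE and of -2.67 over the 26 without, and of -1.25 and -1.98 over all tested genes with and without one. The median member with a CPE kept 33.5% of its GV level with DMSO and the median member without one 6.57%. Of the 11 members with the smallest falls or a rise 8 had a CPE (Orc6, Gmnn, Pola1, Pole2, Mcm2, Rpa3, Dbf4 and Cdc45), and Pcna, Cdc7 and Mcm8 had none. Of the 11 with the largest falls only Rfc2 had one. It lies after the signal, 3 bases from the end of the transcript. The same holds for Orc6 (4 bases) and Dbf4 (1 base), counted above among the smallest falls or a rise. Among all tested genes the same fractions of the ranking held a CPE in 32.3% and 10.98%. With BYBX against DMSO the median change was 0.82 over members with a CPE and 1.05 over those without, beside 0.58 and 0.92 over all tested genes. In a window of 200 bases 20 members had a CPE (44.4%, against 29.8%). These are descriptions of letters in an annotated transcript, with no test, and the ends used in oocytes were not measured.

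**Figure D4:**
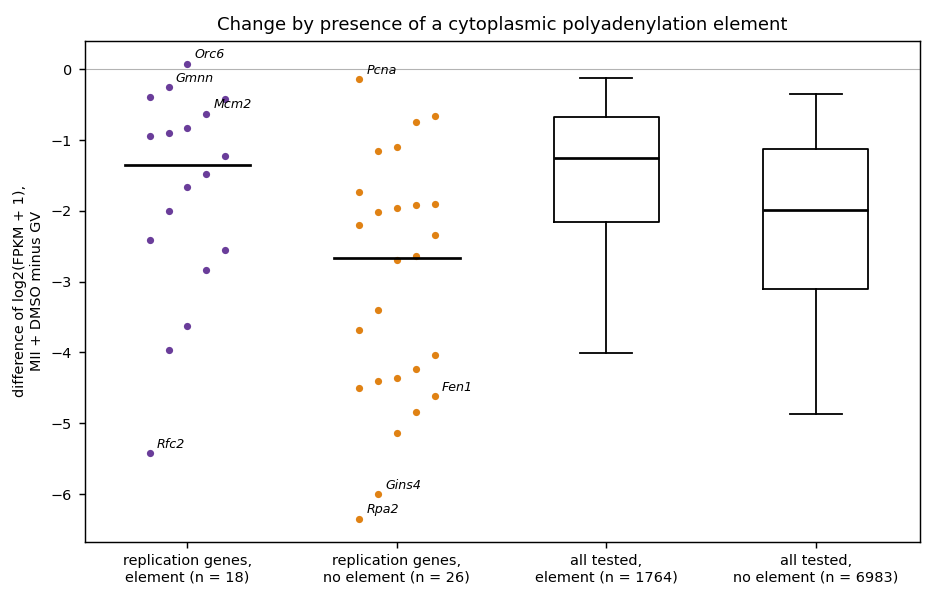
Difference of log2(FPKM + 1) between MII with DMSO and GV for replication genes with and without a CPE in the last 100 bases (points, 1 per gene) and for all tested genes (boxes are quartiles, whiskers the 5th and 95th percentiles). Black lines are medians (-1.35 and -2.67 for the replication genes, -1.25 and -1.98 for all). Values are on the deposited scale, and median centring would shift all of them upwards together.

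BYBX binds rG4s, so the transcripts were also searched for a predicted rG4 motif, 4 runs of at least 3 G with loops of 1 to 7 bases, on the transcript strand. It was found in 8 of the 45 members (17.8%), against 18.7% of the tested genes that matched a transcript. The motifs of Gmnn, Pold2 and Rfc2 (5′ UTR) and Mcm5 (coding sequence) are shown, with the runs of G in capitals, because they let members with and without a change be set side by side.
Gmnn: GGGcgcGGGagaccgaGGGcGGGG
Pold2: GGGcGGGatGGGGcGGG
Rfc2: GGGGcGGGGcctcGGGtggcGGG
Mcm5: GGGccGGGacaGGGtaggtgtGGG

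Motifs also lay in Mcm9 (coding sequence), Mcm10 (5′ UTR) and Gins2 (3′ UTR, with 2 motifs). Members with a motif had a median change of -3.85 from GV to MII with DMSO and of 2.18 with BYBX against DMSO, and those without had -1.98 and 0.85. Over all tested genes the medians were -1.58 and 0.77 with a motif and -1.89 and 0.86 without. On the deposited scale Gmnn, with a motif in its 5′ UTR, was one of the 5 members not called in any comparison, while Rfc2, Pold2 and Mcm5 were called in all of them. Under both other scalings Gmnn was called higher in MII with DMSO against GV (1.60 and 2.06) and in BYBX against GV (1.12 and 1.17), and Pold2 was not called in BYBX against GV (-0.48 and -0.39). With loops of up to 12 bases 11 members (24.4%, against 33.3%) had a motif. A motif is a prediction from letters, and none was tested for folding here.

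Other factors of the fork and the supply of nucleotides were followed on lists of 34 and 12 genes. Of the 30 tested other replication factors 25 were lower in MII with DMSO against GV, 13 rose with BYBX against DMSO and 18 were lower with BYBX against GV, beside 88.3%, 65.2% and 69.2% of all tested entries. Their median changes were -1.30, 0.53 and -0.74, nearer to 0 than those over all tested entries (-1.83, 0.84 and -0.99). Dscc1, a subunit of an alternative clamp loader, showed the largest fall and rise, from 72.0 FPKM in GV to 0.397 with DMSO and 17.1 with BYBX (-5.75 and 3.73). Of the 11 tested genes for nucleotide supply 10, 6 and 8 were called in the same directions, beside the same shares of all tested entries, with medians of -1.84, 1.03 and -1.07. These counts lay near the shares of the whole table. Tyms, which makes thymidylate, had the largest fall and rise of this list (-4.73 and 2.78). No gene of either list was called in the opposite direction on the deposited scale.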

How the data were processed

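Smart-seq2 libraries of 10 oocytes each (2 GV, 3 MII with DMSO, 2 MII with BYBX) were grouped by their titles. The authors trimmed reads (Trim Galore 0.6.7), aligned them to mm10 (HISAT2 2.2.1), kept uniquely mapped reads and computed FPKM with Cufflinks 2.2.1. The deposited FPKM values had been scaled by the authors with the ERCC spike-in, and batches had been matched on their GV libraries. The scaling factors and any setting for strand are not given in the sources used here. Of 25912 entries 4 with a missing value were left out. No ERCC entry is listed, so the scaling could not be recomputed.

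Groups were compared with limma 3.58.1 in R 4.3.3 (lmFit, eBayes with an intensity trend) on log2(FPKM + 1) over the 9202 entries with a mean of the 3 group means of at least 1 FPKM. All 7 libraries were in 1 fit with 4 residual degrees of freedom, and p-values were Benjamini-Hochberg adjusted over all 9202 entries with a threshold of 0.05. A single exact permutation test of 2 libraries against 3 cannot go below p = 0.1. The fit was tested on simulated data. The fold changes understate low genes because of the pseudocount of 1. Values over the members carry no test. The members, the gene lists and the motifs were chosen with earlier results of these data known, and the named genes were the extremes and most abundant members of each comparison, those not called in MII against GV, and Cdc6, Cdt1, Gmnn and Mcm2 to Mcm7. Alternatives were a pseudocount of 0.1, a filter at 5 FPKM or none, the same total FPKM, median centring, a fit without the intensity trend, a fit of the compared groups alone, a replicate block, a required 2-fold difference and leaving out each library.

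Depth was estimated, after the data had been seen, from the spacing of low FPKM values times length (less 250 bases) in 2395 genes with 1 transcript over 1500 bases. Of the values of up to 5.5 steps 69.6% to 76.5% lay within 0.1 of a whole step. Estimates of fragments in the members use the longest transcript and cover no amplification error. Positions, exon overlaps and 3′ ends are from GENCODE vM21 on GRCm38 (mm10), in which 45 of 45 members and 8747 of 9154 tested gene names matched. A motif sequence of 1 member is not reported here. Tables and figures used Python 3.11.15, pandas 2.3.3, numpy 2.4.6 and matplotlib 3.10.9.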

Additional observations from a re-analysis of the deposited data

How the results depend on the processing

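The scale of the libraries moved the results most, since the total FPKM of the groups differs. Same-total scaling called 22 members lower and 14 higher in MII with DMSO against GV, 2 and 17 in BYBX against DMSO, and 12 and 4 in BYBX against GV. Median centring called 16 and 17, 15 and 14, and 14 and 8. The median changes of the members in these comparisons were -0.61, 0.31 and -0.37 at the same total and 0.20, -0.40 and -0.23 with median centring, and the summed FPKM at the same total was 86.0% of GV with DMSO and 88.6% with BYBX. The turns of sign listed next are those of members called on the deposited scale, under the other scaling or under both. Turns of members called under neither are not all listed. At the same total FPKM the sign turned in MII with DMSO against GV, to 0.34 for Orc1, 1.60 for Gmnn, 1.22 for Mcm2, 0.58 for Mcm7, 0.67 for Mcm8, 1.01 for Cdc7, 0.98 for Dbf4, 0.70 for Cdc45, 1.12 for Pola1, 0.0057 for Pola2, 1.11 for Pole2, 1.53 for Pcna, 0.63 for Rfc1, 0.61 for Rfc5 and 1.04 for Rpa3. At the same total FPKM the sign turned in BYBX against DMSO, to -0.0015 for Mcm7 and -0.60 for Cdc45. Members called under neither scaling turned there too, among them Gmnn (-0.49), Mcm2 (-0.45), Dbf4 (-0.59) and Rfc1 (-0.43). At the same total FPKM the sign turned in BYBX against GV, to 0.77 for Mcm2, 0.10 for Cdc45, 0.066 for Gins3 and 0.19 for Rfc1. Turns without a call under either scaling included Orc1 (0.38), Mcm4 (0.26), Mcm7 (0.58) and Mcm8 (0.43). With median centring the sign turned in MII with DMSO against GV, to 0.83 for Orc1, 0.11 for Orc5, 2.06 for Gmnn, 1.68 for Mcm2, 0.31 for Mcm4, 1.08 for Mcm7, 1.56 for Mcm8, 0.40 for Mcm9, 1.65 for Cdc7, 1.41 for Dbf4, 1.37 for Cdc45, 0.64 for Gins3, 1.92 for Pola1, 0.58 for Pola2, 0.29 for Prim2, 0.34 for Pold1, 1.89 for Pole2, 2.17 for Pcna, 1.15 for Rfc1, 1.20 for Rfc5, 1.48 for Rpa3 and 0.39 for Lig1. With median centring the sign turned in BYBX against DMSO, to -0.38 for Orc1, -0.36 for Orc3, -0.48 for Orc4, -0.36 for Orc5, -0.88 for Gmnn, -0.85 for Mcm2, -0.10 for Mcm3, -0.45 for Mcm6, -0.43 for Mcm7, -0.85 for Mcm8, -0.53 for Mcm9, -0.025 for Mcm10, -0.96 for Cdc7, -0.98 for Dbf4, -1.11 for Cdc45, -0.42 for Gins3, -0.99 for Pola1, -0.79 for Pola2, -0.43 for Pold1, -1.27 for Pole2, -1.07 for Pcna, -0.87 for Rfc1, -0.77 for Rfc5, -0.89 for Rpa3 and -0.42 for Lig1. With median centring the sign turned in BYBX against GV, to 0.82 for Mcm2, 0.65 for Mcm7, 0.71 for Mcm8, 0.69 for Cdc7, 0.26 for Cdc45, 0.22 for Gins3, 0.92 for Pola1 and 0.28 for Rfc1. Orc1 (0.44) and Mcm4 (0.33) turned as well, called under neither scaling, as did Prim2 in BYBX against DMSO (-0.67).

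A pseudocount of 0.1 gave medians of -2.51 in MII with DMSO against GV and 1.24 in BYBX against DMSO, and the filter at 5 FPKM, which left 38 members to test, gave 1.05 in the second of these. Requiring a 2-fold difference left 19 members with a rise in BYBX against DMSO. Without the 3 members of highest mean FPKM the share of total FPKM was 0.387% in GV, 0.270% with DMSO and 0.319% with BYBX. Leaving out each library gave 34 to 39 falls in MII with DMSO against GV, 27 to 30 rises in BYBX against DMSO and 24 to 34 falls in BYBX against GV. The medians ran from -2.48 to -1.82, from 0.88 to 1.02 and from -1.57 to -0.93, the sums from 20.2% to 26.9% and from 38.7% to 51.5% of GV, and the shares from 0.516% to 0.564%, from 0.455% to 0.476% and from 0.464% to 0.493%. In BYBX against GV, leaving out GV 2 brought Orc1 (adjusted p = 0.0253), Mcm4 (0.0203), Dbf4 (0.0319) and Rfc5 (0.0475) under the threshold in limma's test, and leaving out BYBX 2 brought Pole2 (0.0361). Beyond the scalings the cause of these changes was not tested.

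Deviations of equally numbered libraries correlated at 0.487 and 0.282 between GV and DMSO, at -0.330 between GV and BYBX and at -0.601 and -0.348 between the MII groups. In groups of 2 libraries the deviations mirror each other, so these values cannot show whether equal numbers mark a shared batch. With the replicate number as a block 38 members were called lower in MII with DMSO against GV (median -2.08), 27 higher in BYBX against DMSO (0.91) and 29 lower in BYBX against GV, and the calls lost were those of Mcm2, of Orc4 and Mcm6, and of Cdc45.

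By the fragment steps Fen1, Prim1 and Rfc4 rest on fewer than 10 fragments in at least 1 library with DMSO, so the size of their falls is imprecise.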
